A study of Mus musculus with 6 samples.

Results

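The nuclear receptors are described here in cells of the NG2 lineage from the spinal cord of mice with and without experimental autoimmune encephalomyelitis (EAE), a model of multiple sclerosis in which the immune system is primed against myelin. The members are 46 genes fixed by name, from the steroid hormone receptors to the orphan receptors without a known hormone. All 46 had a row among the 38293 Ensembl genes of the count table. A filter on low counts kept 31 of them, among 16966 genes tested in all. The other 15 were too sparse to test, and they are described by their reads.

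Nuclear receptors are transcription factors that many small fat-soluble molecules switch on directly, among them glucocorticoids, thyroid hormone, retinoic acid, oxysterols and fatty acids. A receptor binds short repeats of a hexamer in DNA, often as a dimer with a retinoid X receptor, and recruits coactivators or corepressors. In oligodendrocyte precursors thyroid hormone, retinoids and glucocorticoids are known to influence the timing of differentiation. In vessel walls COUP-TFII, encoded by Nr2f2, is known for its role in venous identity, and the Rev-erb and ROR receptors form a loop of the circadian clock.

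The study comprised 3 EAE and 3 Control libraries. All mice were female and carried NG2-CreERTM, Rosa-tdTomato/+ and Cx3cr1GFP/+ in both groups. Cre was thus inducible and driven by the promoter of NG2 (Cspg4), which is active in oligodendrocyte precursors and in mural cells of vessels, and the sorted cells were tdTomato+ and negative for a dead-cell dye. Actinomycin D, which blocks transcription, was kept in the solutions while cords were dissociated. The sources used here do not give the day of disease, the hour of collection, the induction of Cre or the number of animals in a library. The p-values therefore speak only of the spread between libraries, part of which may be technical.

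Read totals ran from 26220351 to 28734798 in EAE libraries and from 22141522 to 25675547 in Control libraries. EAE replicate 3 and Control replicate 3 stood apart from the other libraries of their groups on the first and second principal components. The sort label was compared with its markers, in CPM, the read count scaled to the same library size with TMM factors. Where all values of a group are listed, they are in the order of replicates 1, 2 and 3. The NG2 gene Cspg4 was at 169, 160.2 and 290.05 CPM in EAE, against 356, 375 and 347 CPM in Control, and precursor markers summed to 3765 to 4415 CPM in EAE, against 2566 to 3704 CPM in Control. Of the 9 precursor markers tested, 3 had EAE ranges above Control and 1, Cspg4, below. Only Gpr17 was called, higher, at 998, 862 and 698 CPM in EAE, against 242, 367 and 405 CPM in Control. Without Gpr17 the precursor sums of the groups overlap. The ranges of Pdgfra, Olig1, Olig2, Sox10 and C1ql1 overlapped as well. Markers of newly formed oligodendrocytes summed to 1912 to 2458 CPM in EAE, against 849 to 1089.8 CPM in Control, and those of mature oligodendrocytes to 28796 to 45411 CPM in EAE, against 30064 to 35505 CPM in Control. Markers of pericytes and smooth muscle summed to 985, 776 and 577 CPM in EAE, against 6405, 5880.1 and 3696 CPM in Control, with 11 of 11 tested genes lower. Markers of endothelial cells, which the label does not name, summed to 411, 319.6 and 295 CPM in EAE, against 2410.2, 1816 and 1435 CPM in Control, with 12 of 12 lower. Microglia and macrophage markers summed to 128, 26.9 and 313 CPM in EAE, against 23.02, 18.1 and 27.3 CPM in Control. Of 9 tested, 2 were called higher, Lyz2 and Tyrobp. EAE ranges were above Control for 3 of the 9 and below for 1, Tmem119. Lyz2 alone was at 90.8, 6.30 and 219 CPM in EAE, against 0.329, 0.0402 and 1.34 CPM in Control. T and B cell markers summed to 0.782 to 13.4 CPM in EAE, against 0.329 to 0.879 CPM in Control. In bulk samples, fewer cells of a type and less RNA per cell cannot be told apart. Fibroblast markers summed to 18.3, 19.1 and 30.3 CPM in EAE, against 89.7, 87.7 and 50.3 CPM in Control, with 3 of 5 lower, and neuron markers to 51.9 to 114 CPM in EAE, against 17.6 to 31.2 CPM in Control, with 1 of 6 higher. That neuron gene was Tubb3, at 38.9, 39.8 and 99.3 CPM in EAE, most of the EAE sum, against 7.23, 6.2 and 14.8 CPM in Control. The 5 other neuron markers tested were not called, and without Tubb3 the neuron sums of the groups overlap. Astrocyte markers summed to 371, 455 and 372 CPM in EAE, against 241, 325 and 459 CPM in Control, with 2 of 8 higher. Gfap was at 17.4, 15.1 and 51.3 CPM in EAE, against 4.15, 2.25 and 3.10 CPM in Control. S100b was at 119, 106 and 90.0 CPM in EAE, against 28.8, 40.9 and 43.0 CPM in Control. The other astrocyte markers were not called. The plot of marker sums shows the groups apart for vessel cells, fibroblasts, neurons, precursors and newly formed oligodendrocytes.

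**Figure D1:**
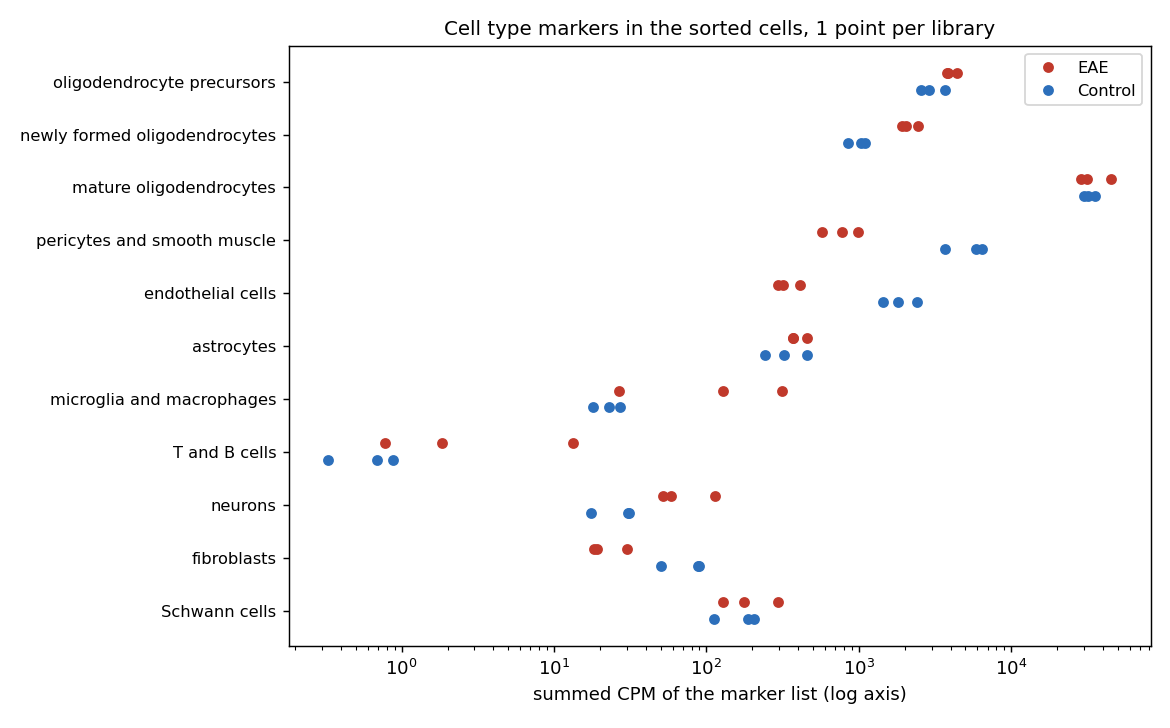
Summed CPM (library-scaled reads) of the marker genes of 11 cell types on a log axis, with 1 point per library, EAE in red above Control in blue. Pericyte, endothelial and fibroblast sums are lower in all 3 EAE libraries, sums of precursors, newly formed oligodendrocytes and neurons are higher in all 3, and EAE replicate 3 has the highest microglia and macrophage sum. Gpr17 was the only precursor marker called and Tubb3 the only neuron marker called, and without these genes the 2 sums overlap. Astrocyte sums overlap, and Lyz2 makes up most of the highest microglia and macrophage sum.

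Summed nuclear receptor transcripts took a smaller share of the reads in EAE. The 46 genes together were at 834, 900.4 and 767 CPM in EAE, against 1248, 1233 and 1219.6 CPM in Control, and the groups did not overlap. Abundant genes weigh most in this sum. The clock receptors alone summed to 157, 168 and 112 CPM in EAE, against 389, 378 and 271 CPM in Control. Thyroid hormone and vitamin D receptors overlapped, at 196, 184 and 150 CPM in EAE, against 179, 172 and 179 CPM in Control. Of the 31 tested receptors, 3 were called lower in EAE and 0 higher, by the quasi-likelihood test of edgeR with Benjamini-Hochberg adjustment over all tested genes at an adjusted p under 0.05. These were Nr1d1, which encodes Rev-erb alpha, Nr2f2, which encodes COUP-TFII, and Ppard, a fatty acid sensor. Over all genes 7.14% were called, 4.33% lower and 2.82% higher, and 9.68% of the receptors were called. Unadjusted, 8 receptors (25.8%) had a p under 0.05, against 20.2% of all genes. DESeq2 called 8 lower and 0 higher, and limma-voom 5 and 0. Leaving out EAE replicate 2 gave 5 calls, and leaving out EAE replicate 1 or Control replicate 1 or 2 gave 2.

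The direction was more uniform than the calls. Fold changes were below 0 on the log2 scale for 27 of 31 receptors (87.1%), against 49.7% of all tested genes, and their median was -0.54, against 0.004 for all genes. Group ranges did not overlap for 10 of the 31 receptors. The EAE range lay below the Control range for 9 receptors (29%) and above it for 1 (3.23%), against 13.4% of all genes in each direction. The receptor in the opposite direction was Nr2f1, the paralog of Nr2f2. These counts describe the list, and no test of the list was made. The plot of fold changes by receptor class shows the 3 calls and the 7 further receptors with separate ranges.

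**Figure D2:**
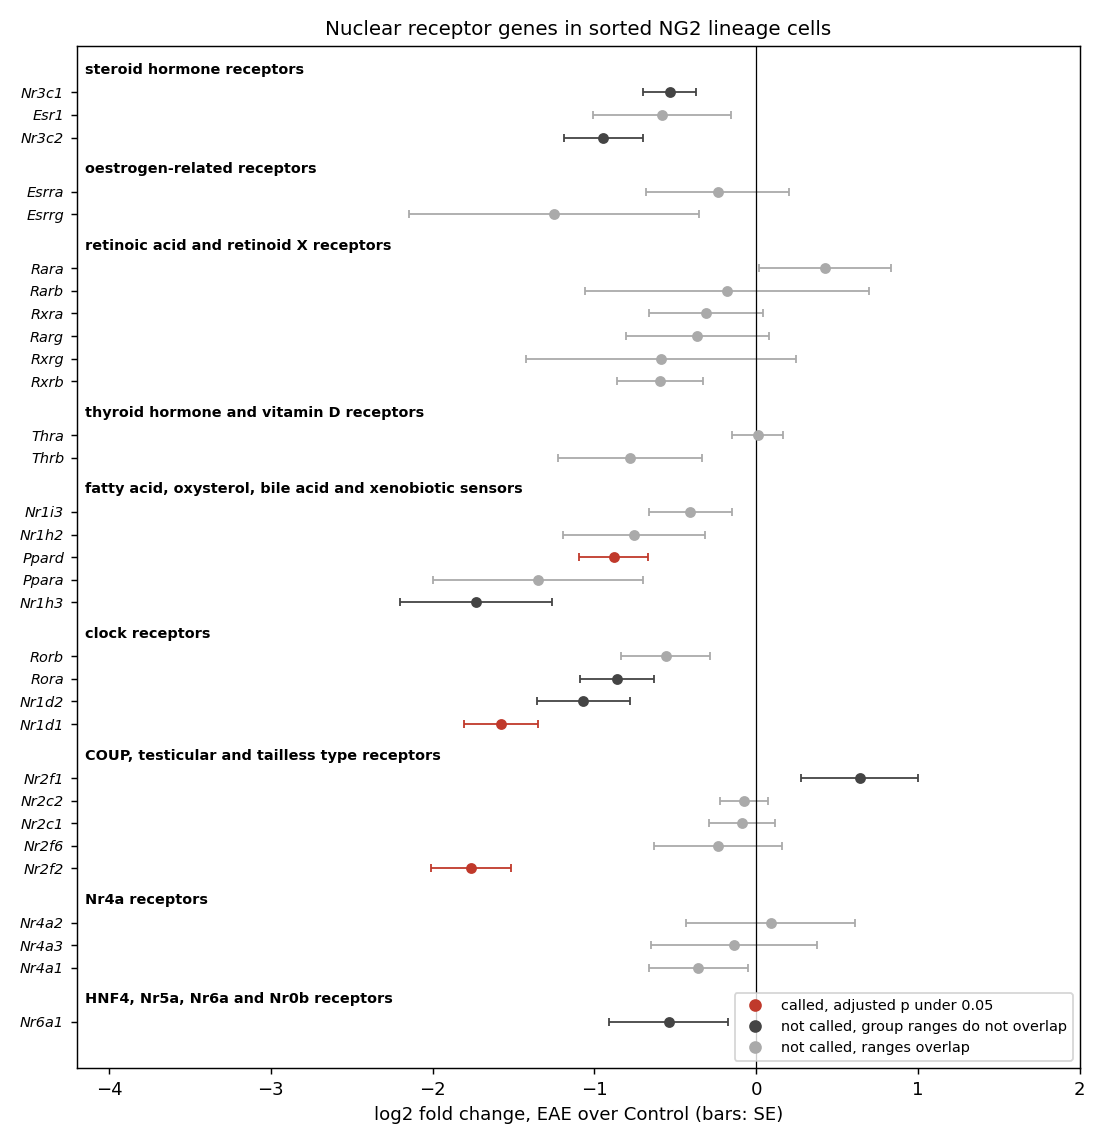
Log2 fold change of each of the 31 tested receptors, EAE over Control, with its SE as a bar, grouped by receptor class. The 3 called receptors are red, receptors with group ranges that do not overlap are dark grey and the rest light grey, and all points but Rara, Thra, Nr2f1 and Nr4a2 lie left of 0.

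Levels are compared between genes per kilobase of the gene length in the deposited table, as mean ± SD of 3 libraries. In EAE libraries the most abundant receptor was Thra, the thyroid hormone receptor alpha, at 36.7 ± 6.16 CPM per kb. The glucocorticoid receptor Nr3c1 followed at 22.1 ± 3.89 and Nr1d1 at 20.98 ± 4.06, and the last 2 did not differ beyond their spread. In Control libraries Nr1d1 led at 62.5 ± 15.5 CPM per kb, ahead of Thra at 36.5 ± 1.64 and Nr3c1 at 31.9 ± 2.73. Next in EAE libraries came Nr2c2 at 13.4 ± 1.58 CPM per kb, Nr4a1 at 8.61 ± 2.66, Ppard at 8.41 ± 2.45 and Nr1h2 at 8.25 ± 1.51, the last 3 within their spread of each other. The range over tested receptors was wide, down to Esrrg at 0.0601 ± 0.0306 CPM per kb in EAE and 0.144 ± 0.124 in Control, which did not differ beyond their spread. The plot of levels per length orders all 31.

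**Figure D3:**
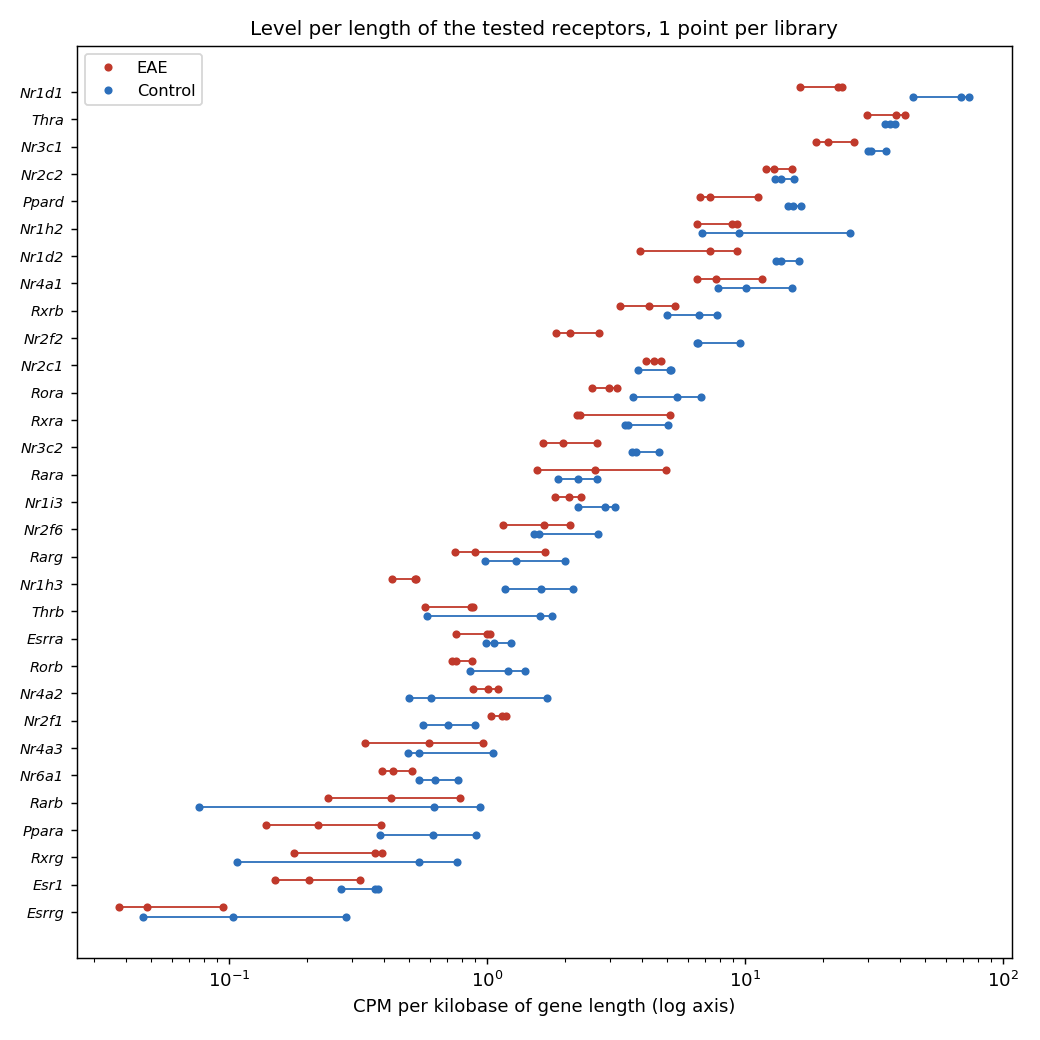
CPM per kilobase of gene length on a log axis for the 31 tested receptors, ordered by the mean of the 6 libraries, with 1 point per library, EAE in red above Control in blue. Nr1d1, Thra and Nr3c1 are at the top, and Nr1d1 has its Control points to the right of all others.

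Of the 4 clock receptors Nr1d1 fell, and Nr1d2 and Rora had EAE ranges below Control without a call. Nr1d1 and Nr1d2 encode Rev-erb alpha and beta, haem-binding repressors of the clock gene Arntl, and Rora and Rorb encode the ROR activators that compete for the same sites. The promoters of both Rev-erb genes are shown because the genes are paralogs whose values were lower in all EAE libraries. Each line is the 250 bases before the RefSeq start on the gene's strand (build GRCm38.p6), chr11:98775378-98775627 on the minus strand for Nr1d1 and chr14:18239107-18239356 on the minus strand for Nr1d2, and capitals mark the receptor hexamer AGGTCA.
Nr1d1: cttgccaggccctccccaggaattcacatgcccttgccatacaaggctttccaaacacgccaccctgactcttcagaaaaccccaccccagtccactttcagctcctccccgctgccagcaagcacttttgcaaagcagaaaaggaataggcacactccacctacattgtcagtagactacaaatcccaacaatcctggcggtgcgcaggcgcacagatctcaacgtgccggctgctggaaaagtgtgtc
Nr1d2: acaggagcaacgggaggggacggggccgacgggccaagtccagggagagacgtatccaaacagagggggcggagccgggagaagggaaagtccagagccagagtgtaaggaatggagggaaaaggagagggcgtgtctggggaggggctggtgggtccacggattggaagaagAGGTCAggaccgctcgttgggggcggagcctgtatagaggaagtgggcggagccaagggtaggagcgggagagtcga
Searched on both strands, the AGGTCA hexamer began 77 bases before the start of Nr1d2 and was not found in the Nr1d1 window. The same search found it in 14.0% of 32851 RefSeq promoters of this length. The E-box CACGTG of the clock activators (6.02% of promoters) and the D-box TTATGTAA of Dbp and its relatives (0.819%) were not found in either window. No match says only that these letters are not in this window. RefSeq promoters were matched for 42 of the 46 receptors.

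Nr1d1 (ENSMUSG00000020889, chr11:98767932-98775333) was at 73.1, 70.3 and 50.2 CPM in EAE, against 228, 211 and 138 CPM in Control. All 3 EAE libraries lay below the lowest Control library, and replicate 3 was the lowest in each group. Expression was 2.98-fold lower in EAE (log2 fold change with its SE -1.57 ± 0.23, adjusted p = 0.00532), and the call held in all 16 alternative settings, with log2 fold changes of -1.77 to -1.41. Nr1d1 and Thra overlap at their 3′ ends on opposite strands, in 8.55% of the exonic bases of Nr1d1 and 5.7% of those of Thra, and the strand setting of the counting is not given, so reads of the shared bases cannot be told apart. Thra itself was at 192, 178 and 137 CPM in EAE, against 176, 160.5 and 169 CPM in Control, with overlapping groups (log2 fold change 0.01 ± 0.16, adjusted p = 0.984).

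Nr1d2 was at 36.6, 46.6 and 19.6 CPM in EAE, against 80.8, 65.9 and 68.8 CPM in Control, with separate ranges and the lowest value in EAE replicate 3. Its log2 fold change of -1.07 ± 0.29 did not pass the test (adjusted p = 0.0618), and it passed under 7 of the 16 alternatives. As a share of the summed Rev-erb level per length, Nr1d1 held 76.5, 71.1 and 80.6% in EAE, against 82.1, 83.9 and 76.5% in Control, and these ranges overlapped. Rora was at 38.9, 41.8 and 33.4 CPM in EAE, against 71.1, 87.9 and 48.2 CPM in Control. Its ranges were separate, by the margin of EAE replicate 2 and Control replicate 3, and the log2 fold change was -0.86 ± 0.23 (adjusted p = 0.0591, passed under 4 of the 16 alternatives). Rorb was at 8.11, 9.65 and 8.37 CPM in EAE, against 9.54, 13.4 and 15.6 CPM in Control, where EAE replicate 2 lay above Control replicate 1 (log2 fold change -0.56 ± 0.28, adjusted p = 0.305). Group sums of the clock receptors were 157, 168 and 112 CPM in EAE, against 389, 378 and 271 CPM in Control.

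The median log2 fold change of 15 other clock genes tested was -0.55. Of these, 2 fell (13.3%, against 4.33% of all genes) and none rose. Both encode activators of the PAR bZip family that bind the D-box. Dbp was at 9.69, 10.5 and 8.87 CPM in EAE, against 37.2, 28.5 and 36.1 CPM in Control, with all EAE values under a separate Control range. It was 3.501-fold lower (log2 fold change -1.81 ± 0.21, adjusted p = 0.00218) and was called in all 16 alternatives, although 18% of its exonic bases overlap Sphk2 on the opposite strand. Hlf was at 25.8, 26.9 and 5.75 CPM in EAE, against 84.2, 88.2 and 75.9 CPM in Control, and EAE replicate 3 was far below the other EAE libraries. Its log2 fold change was -2.09 ± 0.48 (adjusted p = 0.0332), and the call was lost with no filter, without EAE replicate 1 and without each Control replicate in turn (highest adjusted p 0.128). The third member of that family, Tef, was at 55.04, 57.8 and 35.5 CPM in EAE, against 86.8, 83.8 and 81.2 CPM in Control with separate ranges and missed the threshold (log2 fold change -0.76 ± 0.20, adjusted p = 0.0551).

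The period genes Per2 and Per3, repressors of the loop, had log2 fold changes of -0.84 ± 0.29 and -0.88 ± 0.26 (adjusted p = 0.134 and 0.0846) with EAE ranges below Control. Arntl, the Rev-erb target and activator partner of Clock, was at 4.97, 6.48 and 1.33 CPM in EAE, against 4.69, 3.82 and 9.77 CPM in Control. Its groups overlapped, and its fold change had no stable sign (log2 fold change -0.51 ± 0.60, and 0.001 without Control replicate 3). Clock was at 139.9, 120.05 and 157 CPM in EAE, against 109.5, 104 and 124 CPM in Control (log2 fold change 0.30 ± 0.15, adjusted p = 0.315), and Cry1, another repressor, at 13.2, 18.3 and 12.7 CPM in EAE, against 11.5, 10.02 and 11.4 CPM in Control with EAE above Control (log2 fold change 0.42 ± 0.25, adjusted p = 0.407). Ciart, a repressor of the same loop, shows the difference of Control replicate 3, at 4.09, 4.69 and 2.43 CPM in EAE, against 5.14, 4.02 and 31.98 CPM in Control. In the same libraries 11 of 11 pericyte and 12 of 12 endothelial markers were lower in EAE, with the sums given above. Their part in the values of the clock receptors and clock genes was not tested, and the hour of collection is not given in the sources used here.

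Among the COUP, testicular and tailless type receptors, which lack an established hormone, Nr2f2 fell, and its paralog Nr2f1 was higher in every EAE library without passing the test. Nr2f2 (ENSMUSG00000030551, chr7:70351944-70366735) was at 13.3, 9.02 and 10.2 CPM in EAE, against 46.5, 32.1 and 31.6 CPM in Control. Every EAE value was under a separate Control range, in which Control replicate 1 was the highest. It was 3.39-fold lower in EAE (adjusted p = 0.00477, log2 fold change -1.76 ± 0.25), and the call held in all 16 alternatives (log2 fold changes of -1.91 to -1.56). An opposite-strand gene, B130024G19Rik, covers 7.46% of its exonic bases. Nr2f1, which encodes COUP-TFI, was at 5.64, 4.92 and 5.45 CPM in EAE, against 2.67, 3.34 and 4.26 CPM in Control, with all EAE libraries above all Control libraries. Its log2 fold change was 0.64 ± 0.36 and did not pass the test (adjusted p = 0.383).

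The balance of the COUP paralogs differed between the groups. Of their summed level per length, Nr2f1 held 30.3, 35.8 and 35.3% in EAE, against 5.55, 9.63 and 12.1% in Control. The lowest EAE share was above the highest Control share. An exact permutation test of 3 against 3 cannot give a 2-sided p under 0.1, so no p is given.

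Nr2f2 is also a gene of vessel cells, and its values are given beside those of genes of venous and arterial identity. COUP-TFII is known to repress Nrp1 and Notch signalling genes in veins and to act with Nrp2, a lymphatic and venous co-receptor. Of 12 such venous and arterial genes tested, 8 fell (66.7%, against 4.33% of all genes) and none rose. Their median log2 fold change was -2.20. Among the venous and lymphatic genes, Ephb4, the receptor of venous endothelium, was at 3.87, 1.23 and 6.45 CPM in EAE, against 31.6, 18.7 and 19.4 CPM in Control, and Flt4, a lymphatic growth factor receptor, at 6.52, 1.75 and 5.18 CPM in EAE, against 47.02, 29.7 and 30.2 CPM in Control. Both had separate ranges, and EAE replicate 2 was the lowest library for each (log2 fold changes -2.59 ± 0.53 and -2.99 ± 0.46, adjusted p = 0.0226 and 0.00652). Nrp2 was lower by less (log2 fold change -0.94 ± 0.23, adjusted p = 0.0412).

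Among the arterial and Notch genes, Acvrl1, a BMP receptor of endothelium, was at 5.82, 4.84 and 6.65 CPM in EAE, against 35.1, 26.4 and 30.2 CPM in Control (log2 fold change -2.40 ± 0.24, adjusted p = 0.00123). Nrp1 was at 12.5, 7.34 and 12.5 CPM in EAE, against 71.9, 67.4 and 39.99 CPM in Control (log2 fold change -2.47 ± 0.30, adjusted p = 0.00271), and the groups were separate for both genes. The Notch ligand Dll4 had a log2 fold change of -2.28 ± 0.47, the receptor Notch4 -2.21 ± 0.45 and their target Hey2 -1.37 ± 0.34, all called (adjusted p = 0.0234, 0.0215 and 0.0458), while the ephrin Efnb2 missed the threshold (log2 fold change -2.20 ± 0.56, adjusted p = 0.0519). Another gene on the opposite strand covers 5.56% of the exonic bases of Dll4. Flt4, Nrp1 and Acvrl1 were called in all 16 alternatives. The other calls were lost when some single libraries were left out, while the fold changes kept their sign. Those of Ephb4, Notch4, Dll4, Hey2 and Nrp2 were all lost without Control replicate 1 and without Control replicate 2, and Nrp2 also without Control replicate 3. Without EAE replicate 1 Ephb4, Hey2 and Nrp2 were lost, without EAE replicate 2 Dll4, Hey2 and Nrp2, and without EAE replicate 3 Hey2. Library sizes alone also ended the calls of Hey2 and Nrp2, and limma-voom that of Hey2, and the highest adjusted p of Nrp2 over the alternatives was 0.171. With single libraries left out the log2 fold changes ran from -3.17 to -2.17 for Ephb4, -2.48 to -1.85 for Notch4, -2.66 to -1.82 for Dll4, -1.64 to -1.16 for Hey2 and -1.12 to -0.84 for Nrp2, and the calls over all genes ran from 440 to 1150, against 1212 with all libraries. Endothelial markers had a median log2 fold change of -2.49 and pericyte markers of -2.73, and their part in the values of Nr2f2 and these genes was not tested.

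The testicular receptors did not pass the test. Nr2c2, which encodes TR4, was at 118, 139 and 111 CPM in EAE, against 126, 142 and 119.7 CPM in Control, with overlapping groups (log2 fold change -0.08 ± 0.15, adjusted p = 0.843), and Nr2c1, which encodes TR2, ran over 19.01 to 21.8 CPM in EAE and 17.8 to 23.7 CPM in Control. Nr2f6, a further COUP relative, ran over 3.43 to 6.25 CPM in EAE and 4.52 to 8.01 CPM in Control. Overlapping genes make 2 of these values uncertain, Nr2c2 with 31.2% of its exonic bases in Mrps25 and Gm44249, and Nr2f6 with 54.4% in Ocel1. The tailless receptor Nr2e1, a factor of neural stem cells, had 0, 3 and 1 reads in EAE and 0 in each Control library, and Nr2e3, a photoreceptor factor, had 1 read, in Control replicate 1.

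Among the sensors of fatty acids, oxysterols, bile acids and xenobiotics, 1 of 5 tested was called. Ppard (ENSMUSG00000002250, chr17:28232700-28301474), which encodes PPAR delta, a fatty acid receptor known to promote fat oxidation, was at 33.9, 31 and 51.97 CPM in EAE, against 71.1, 76.1 and 68.2 CPM in Control. Its groups were separate, and EAE replicate 3 lay between the other EAE libraries and Control. Expression was 1.84-fold lower in EAE (adjusted p = 0.0409, log2 fold change -0.88 ± 0.21). This call was lost with library sizes alone and without EAE replicate 1, EAE replicate 2 or any Control replicate in turn (highest adjusted p 0.172), and was kept without EAE replicate 3. Ppard held 94.5% to 98.5% of the summed PPAR level per length in EAE and 94.2% to 97.5% in Control. Ppara, the PPAR of fatty acid oxidation in liver, was at 0.847, 1.49 and 0.532 CPM in EAE, against 1.48, 2.37 and 3.47 CPM in Control, where EAE replicate 2 just exceeded Control replicate 1 (log2 fold change -1.35 ± 0.65, adjusted p = 0.294). Pparg, the receptor of fat cells, had 0, 0 and 2 reads in EAE and 0 in each Control library.

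PPAR target genes went both ways, with a median log2 fold change of -0.18. Of 13 tested, 1 was higher and 1 lower (7.69% each, against 2.82% and 4.33% of all genes). The gene that rose was Fabp7. This gene, which encodes a fatty acid binding protein of precursors and astroglia, was at 64.1, 46.3 and 50.3 CPM in EAE, against 11.4, 21.5 and 26.7 CPM in Control and 2.701-fold higher (log2 fold change 1.43 ± 0.30, adjusted p = 0.0246). Its call was lost without EAE replicate 1 and without Control replicate 1 or 2 (highest adjusted p 0.0930). The lowest EAE library was above the highest Control library. Of the astrocyte markers, Gfap and S100b were called higher and the others were not called. The part of astrocytes in the values of Fabp7 was not tested. Cpt1a, which carries fatty acids into mitochondria, had a log2 fold change of -0.78 ± 0.24 (adjusted p = 0.103), and Acot1, an acyl-CoA thioesterase, of 0.87 ± 0.22 (adjusted p = 0.0539).

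The oxysterol receptors Nr1h3 and Nr1h2 encode LXR alpha and LXR beta, which switch on cholesterol export. Nr1h3 was at 1.33, 1.08 and 1.33 CPM in EAE, against 2.96, 5.43 and 4.07 CPM in Control, low in both groups and with separate ranges. It was 3.33-fold lower, but the difference did not pass the test (log2 fold change -1.73 ± 0.47, adjusted p = 0.0635) and was called only by DESeq2 among the alternatives. Nr1h2 was at 31.4, 29.9 and 21.97 CPM in EAE, against 32.02, 22.8 and 85.6 CPM in Control. Control replicate 3 stood far above all other libraries, and the log2 fold change of -0.75 ± 0.44 (adjusted p = 0.401) was 0.02 without it.

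The 14 tested genes of oxysterol handling and LXR response, a list that includes Nr1h3 itself, had a median log2 fold change of -0.25. Of these, 1 rose (7.14%, against 2.82% of all genes) and 2 fell (14.3%, against 4.33%). The gene that rose was Abca1, the cholesterol exporter and a textbook LXR target. It was at 115, 104 and 113 CPM in EAE, against 29.8, 34.9 and 40.2 CPM in Control, a separation wider than either range. Expression was 3.17-fold higher in EAE (adjusted p = 0.00122, log2 fold change 1.66 ± 0.16), and the call held in all 16 alternatives. The LXR targets Abcg1, Mylip and Apoe were not called. Abcg1, a second exporter, was at 86.6, 120.3 and 54.3 CPM in EAE, against 80.6, 64.9 and 89.7 CPM in Control with overlapping groups (log2 fold change 0.15 ± 0.27, and -0.15 without EAE replicate 2). Mylip, which degrades the LDL receptor, was at 6.59, 7.82 and 4.29 CPM in EAE, against 22.4, 21.7 and 9.12 CPM in Control and missed the threshold (log2 fold change -1.51 ± 0.40, adjusted p = 0.0569). Apoe, the main lipoprotein of the brain, was at 663, 800.2 and 245 CPM in EAE, against 249, 228 and 313 CPM in Control. EAE replicates 1 and 2 were above Control and EAE replicate 3 was within it (log2 fold change 1.11 ± 0.37, adjusted p = 0.126).

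Scd1, a fatty acid desaturase, was at 122, 161 and 120.1 CPM in EAE, against 251, 228 and 201 CPM in Control, with separate ranges (log2 fold change -0.75 ± 0.17, adjusted p = 0.0293), and its call was lost without EAE replicate 1 and without Control replicate 1 or 2 (highest adjusted p 0.130). Pltp, the phospholipid transfer protein, was at 83.2, 64.98 and 62.8 CPM in EAE, against 603, 442 and 358 CPM in Control and 6.65-fold lower (log2 fold change -2.73 ± 0.23, adjusted p = 0.00100), a call kept in all 16 alternatives. Another gene, Ctsa, covers 19.3% of the exonic bases of Pltp on the opposite strand. Beside these values, the summed endothelial markers were at 295 to 411 CPM in EAE, against 1435 to 2410.2 CPM in Control. Microglia and macrophage markers summed to 26.9 to 313 CPM in EAE, against 18.1 to 27.3 CPM in Control. Lyz2 alone made up 219 CPM of the highest of these sums. Astrocyte markers summed to 371 to 455 CPM in EAE, against 241 to 459 CPM in Control. The part of these cells was not tested. Of the bile acid and xenobiotic sensors, Nr1h4 and Nr1i2 had 0 reads in every library, and Nr1i3 was at 9.14, 8.12 and 10.2 CPM in EAE, against 13.9, 12.7 and 9.904 CPM in Control. Since 74.9% of the exonic bases of Nr1i3 lie in Tomm40l, a mitochondrial import gene at 10.2, 8.98 and 10.5 CPM in EAE, against 14.6, 13.5 and 11.6 CPM in Control, the level of Nr1i3 itself is uncertain.

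None of the steroid hormone receptors passed the test, although both corticosteroid receptors had separate ranges. Nr3c1 (ENSMUSG00000024431, chr18:39410545-39519421), the glucocorticoid receptor, was at 156, 196 and 139.6 CPM in EAE, against 222, 229 and 260.1 CPM in Control. The highest EAE library was below the lowest Control library, and the difference missed the threshold (log2 fold change -0.53 ± 0.16, adjusted p = 0.0960). Nr3c2, the mineralocorticoid receptor, which also binds glucocorticoids with high affinity, was at 12.7, 17.3 and 10.6 CPM in EAE, against 30.1, 24.4 and 23.6 CPM in Control. Its log2 fold change was -0.95 ± 0.24 (adjusted p = 0.0539), and it passed under 6 of the 16 alternatives. Of the summed corticosteroid receptor level per length, Nr3c1 held 91.5, 90.8 and 91.96% in EAE, against 86.5, 89.1 and 90.6% in Control, and all EAE shares were above all Control shares. The oestrogen receptor Esr1 ran over 2.06 to 4.397 CPM in EAE and 3.702 to 5.15 CPM in Control (log2 fold change -0.58 ± 0.43, adjusted p = 0.517). Esr2 had 1, 0 and 16 reads in EAE libraries and Pgr, the progesterone receptor, 0, 16 and 0, with 0 in each Control library, so 1 library held nearly all reads of each. The plot of receptor CPM by library shows the corticosteroid receptors beside the others with separate ranges.

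**Figure D4:**
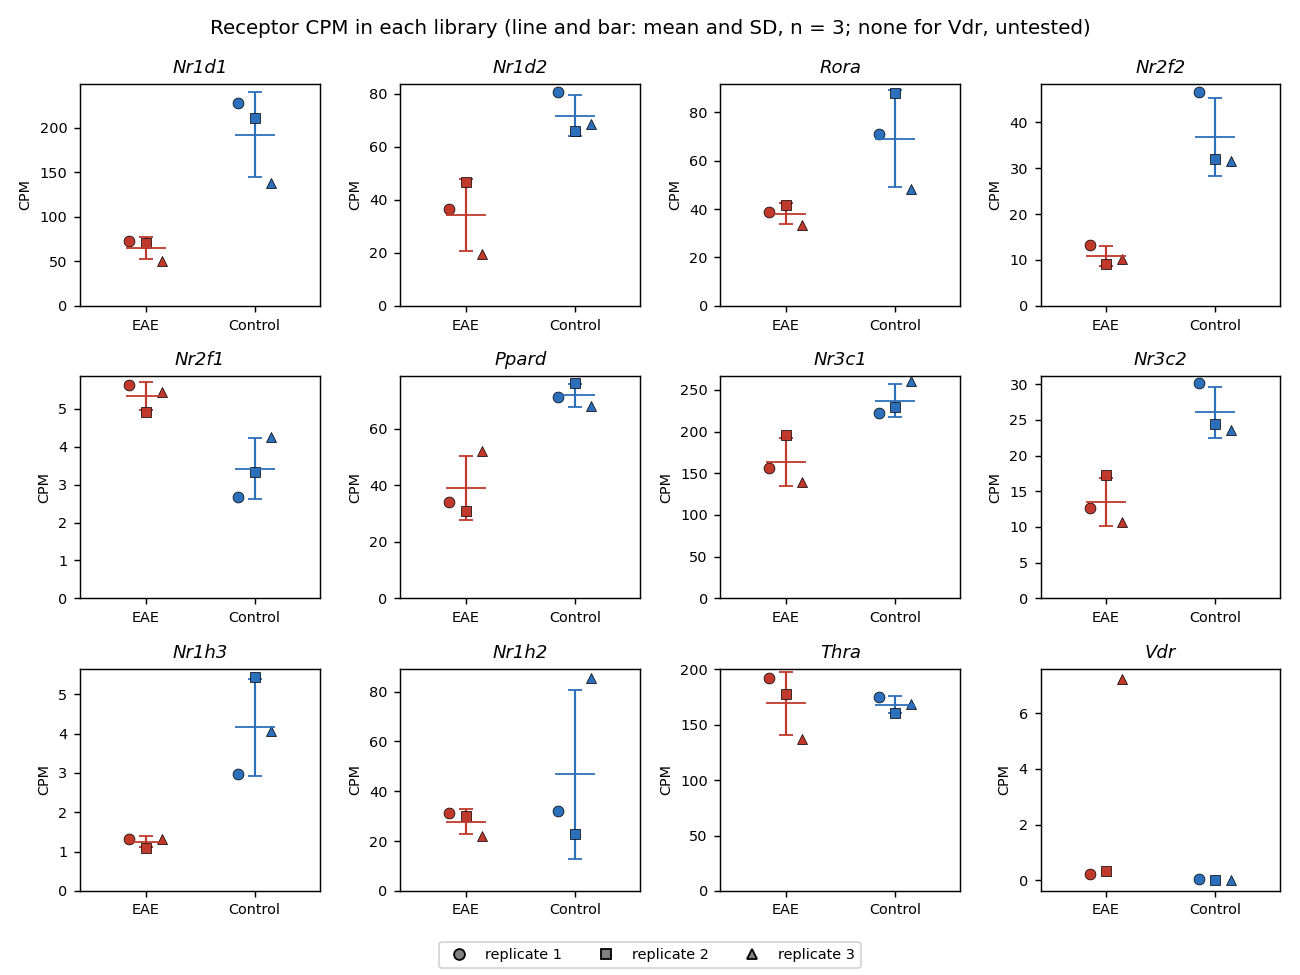
CPM in each library for 12 receptors, EAE in red left of Control in blue, with circles, squares and triangles for replicates 1, 2 and 3 and the mean and SD of 3 libraries as lines. Groups are apart for Nr1d1, Nr1d2, Rora, Nr2f2, Nr2f1, Ppard, Nr3c1, Nr3c2 and Nr1h3, Thra overlaps, and single libraries set the spread of Nr1h2 and of Vdr, which was not tested and has no mean drawn.

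Glucocorticoid targets changed in both directions while Nr3c1 itself was not called. Of 16 tested, 3 rose (18.8%, against 2.82% of all genes) and 1 fell (6.25%, against 4.33%). The median log2 fold change was 0.14. Sgk1 (ENSMUSG00000019970, chr10:21882184-21999903), the serum and glucocorticoid regulated kinase, was at 436, 465 and 281 CPM in EAE, against 121, 101 and 163 CPM in Control. The lowest EAE library was well above the highest Control library. Expression was 3.06-fold higher in EAE (adjusted p = 0.00622, log2 fold change 1.61 ± 0.24), and the call held in all 16 alternatives. Fkbp5, a co-chaperone that lowers the hormone affinity of the receptor and is induced by it, was at 14.4, 17.03 and 15.4 CPM in EAE, against 3.33, 5.55 and 1.39 CPM in Control. It was 4.54-fold higher (log2 fold change 2.18 ± 0.46, adjusted p = 0.0239), and its call was lost without EAE replicate 1 or 2 or Control replicate 1 (highest adjusted p 0.106).

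Cdkn1c, a cell cycle inhibitor, was at 16.3, 10.1 and 20.2 CPM in EAE, against 6.08, 5.795 and 7.17 CPM in Control (log2 fold change 1.29 ± 0.31, adjusted p = 0.0417). An opposite-strand gene covers 30.7% of its exonic bases, and the call was lost with library sizes alone, in limma-voom, with both libraries that stood apart left out and without each library in turn other than EAE replicate 2 (highest adjusted p 0.143). Dusp1, a phosphatase of MAP kinases, went the other way at 64.7, 94.2 and 105 CPM in EAE, against 191, 135 and 206 CPM in Control (log2 fold change -1.01 ± 0.23, adjusted p = 0.0307). That call was lost without EAE replicate 1 or 2 and without Control replicate 1 or 3 (highest adjusted p 0.123). Other textbook targets were not called. Tsc22d3, which encodes the glucocorticoid-induced leucine zipper, was at 20.96, 34.4 and 14.8 CPM in EAE, against 35.2, 35.7 and 33.4 CPM in Control with overlapping groups (log2 fold change -0.57 ± 0.29, adjusted p = 0.327). Zbtb16 had a log2 fold change of 1.29 ± 0.41, Errfi1 of 0.54 ± 0.15, Nfkbia of -0.94 ± 0.28 and Klf9 of -0.12 ± 0.20 (adjusted p = 0.102, 0.0604, 0.0924 and 0.804), and that of Klf9 was 0.04 without EAE replicate 1. Precursor and newly formed oligodendrocyte sums, given above, were higher in all EAE libraries, with 1 of 9 and 6 of 8 tested markers called higher. The precursor marker Cspg4 was lower in every EAE library, and without Gpr17 the precursor sums overlap. The part of these cells in the values of Sgk1 and Fkbp5 was not tested.

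Of 9 chaperones that hold steroid receptors in a hormone-binding state, only Fkbp5 was called (11.1%, against 2.82% of all genes higher). The median log2 fold change was 0.12. Hspa8, the constitutive Hsp70, was at 1339.9, 1506 and 1092 CPM in EAE, against 866, 847 and 879 CPM in Control, and Stip1, which links Hsp70 to Hsp90, at 53.97, 51.8 and 59.3 CPM in EAE, against 36.3, 40.8 and 32.5 CPM in Control. EAE was above Control in every library for both, and both missed the threshold (log2 fold changes 0.60 ± 0.17 and 0.59 ± 0.16, adjusted p = 0.0661 and 0.0676). Small nucleolar RNA genes lie in 6.09% of the exonic bases of Hspa8. Of 6 tested genes of steroid synthesis and conversion, none was called, and the median was -0.23.

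Among receptors that pair with or respond to retinoids, 0 of 6 was called and no group ranges were separate. The retinoid X receptor Rxrb, a common dimer partner, was at 15.7, 19.8 and 12.1 CPM in EAE, against 28.9, 18.4 and 24.5 CPM in Control, where EAE replicate 2 lay within the Control range (log2 fold change -0.59 ± 0.26, adjusted p = 0.251). Rxra was at 12.2, 12.5 and 27.9 CPM in EAE, against 18.7, 19.2 and 27.4 CPM in Control, and EAE replicate 3 alone was as high as the highest Control library (log2 fold change -0.31 ± 0.35, adjusted p = 0.703). EAE replicate 3 was also the highest for the retinoic acid receptor Rara, at 6.82, 11.4 and 21.6 CPM in EAE, against 9.86, 8.21 and 11.6 CPM in Control. The log2 fold change of Rara was 0.42 ± 0.41 (adjusted p = 0.643) and -0.11 without EAE replicate 3. Rarg ran over 3.09 to 6.88 CPM in EAE and 4.03 to 8.25 CPM in Control and the sparse Rxrg over 0.410 to 0.897 CPM in EAE and 0.247 to 1.76 CPM in Control. Rarb ran over 0.731 to 2.38 CPM in EAE and 0.231 to 2.86 CPM in Control with a sign that turned under some alternatives, and 38.4% of its exonic bases lie in Top2b and Gm48162.

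Genes of retinoid handling and response included 2 calls, both lower. Stra6, the cell surface receptor for retinol binding protein and itself induced by retinoic acid, was at 4.13, 7.97 and 12.96 CPM in EAE, against 22.3, 30.4 and 47.9 CPM in Control. The groups were separate, and the difference was 4.01-fold (log2 fold change -2.003 ± 0.44, adjusted p = 0.0273). Its call was lost without EAE replicate 1 or 2 and without each Control replicate in turn (highest adjusted p 0.0816). Rarres2, which encodes chemerin, was at 6.08, 6.74 and 2.39 CPM in EAE, against 18.5, 20.9 and 11.7 CPM in Control (log2 fold change -1.75 ± 0.42, adjusted p = 0.0410). Lrrc61 covers 33.6% of its exonic bases on the opposite strand, and the call was lost without EAE replicate 1 or 2 or Control replicate 1 or 2 (highest adjusted p 0.143). In all, 1 of 9 retinoid handling genes (11.1%) and 2 of 9 retinoic acid targets (22.2%) fell, against 4.33% of all genes. The lists share Stra6, Dhrs3, Cyp26b1 and others, with medians of -0.19 and -0.54. The target list includes the receptor Rarb itself. The enzymes that remove retinoids lay on both sides of 0 without a call. Dhrs3, which returns retinal to retinol, was at 1.18, 0.112 and 1.23 CPM in EAE, against 7.36, 8.25 and 2.73 CPM in Control (log2 fold change -2.85 ± 0.80, adjusted p = 0.0729), and Cyp26b1, which degrades retinoic acid, at 8.18, 4.99 and 24.2 CPM in EAE, against 1.15, 3.86 and 4.77 CPM in Control (log2 fold change 1.93 ± 0.68, adjusted p = 0.142). Both had separate ranges. Stra6 is known from barrier and vessel-associated cells, and the vessel markers were lower in the same libraries. Their part was not tested.

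Thyroid hormone receptors were not called. Thra, described above beside Nr1d1, held 97.1% to 98.6% of the summed thyroid receptor level per length in EAE and 95.1% to 98.5% in Control. Thrb, the other thyroid hormone receptor, was at 3.76, 5.66 and 5.78 CPM in EAE, against 3.82, 11.8 and 10.6 CPM in Control, where Control replicate 1 was as low as the lowest EAE library (log2 fold change -0.78 ± 0.45, adjusted p = 0.390). Slco1c1, which carries thyroxine across the blood-brain barrier, was at 36.03, 26.1 and 19.7 CPM in EAE, against 231, 171 and 100.3 CPM in Control. It was 6.13-fold lower (log2 fold change -2.62 ± 0.33, adjusted p = 0.00299), with separate groups and a call in all 16 alternatives.

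Of 11 genes tested in thyroid hormone handling and response 3 fell (27.3%, against 4.33% of all genes), Slco1c1 and Dbp among them. None was higher, and the median was -0.43. Dio2, the activating deiodinase, was at 4.61, 3.43 and 6.51 CPM in EAE, against 5.18, 7.204 and 7.17 CPM in Control (log2 fold change -0.43 ± 0.36, adjusted p = 0.595), and Hr, a corepressor and thyroid hormone target, at 27.7, 34.3 and 30.8 CPM in EAE, against 36.99, 40.2 and 33.2 CPM in Control (log2 fold change -0.25 ± 0.18, adjusted p = 0.496), with overlapping groups for both. Slco1c1 is an endothelial gene in the brain, its fold change was close to the endothelial median of -2.49, and the part of endothelial RNA in it was not tested.

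The vitamin D receptor Vdr was below the filter and had 6, 9 and 218 reads in EAE, against 1, 0 and 0 in Control. EAE replicate 3 held 218 of the 233 EAE reads. In a fit with no filter Vdr was called higher (adjusted p = 0.0339), the 1 receptor so called. Since 1 Control read and 1 EAE library set its ratio, no fold is given. In the same library summed microglia and macrophage markers were highest, at 313 CPM, of which Lyz2 alone made up 219 CPM. The sums were 128 and 26.9 CPM in EAE replicates 1 and 2 and 18.1 to 27.3 CPM in Control. The part of these cells was not tested. Of the 5 tested genes of vitamin D handling and response none was called, 2 had an unadjusted p under 0.05, and the median log2 fold change was 1.92. Spp1 (osteopontin) was at 15.3, 0.522 and 33.9 CPM in EAE, against 0.288, 1.01 and 0 CPM in Control, and Cd14, a monocyte co-receptor, at 0.921, 0.410 and 14.8 CPM in EAE, against 0.0411, 0.724 and 0 CPM in Control, each with its highest value in EAE replicate 3 (adjusted p = 0.0770 and 0.168).

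The Nr4a receptors, orphan receptors induced within minutes as immediate early genes, were not called. Nr4a1 was at 16.1, 19.2 and 28.7 CPM in EAE, against 19.4, 24.9 and 37.6 CPM in Control, with replicate 3 the highest in each group (log2 fold change -0.36 ± 0.31, adjusted p = 0.599). Nr4a2 ran over 3.58 to 4.46 CPM in EAE and 2.01 to 6.92 CPM in Control and Nr4a3 over 2.01 to 5.78 CPM in EAE and 2.96 to 6.29 CPM in Control, and the signs of both fold changes turned when single libraries were left out. Of 12 other immediate early genes, 4 fell (33.3%, against 4.33% of all genes) and none rose, with a median of -1.17. Actinomycin D was present during dissociation in both groups. Egr1, a zinc finger factor, was at 34.1, 38.9 and 46.6 CPM in EAE, against 77.1, 83.1 and 139 CPM in Control (log2 fold change -1.32 ± 0.25, adjusted p = 0.0151), called in every alternative except the fit without EAE replicate 1 (adjusted p = 0.0732). Btg2, an antiproliferative gene, was at 14.99, 11.9 and 10.1 CPM in EAE, against 32.9, 42.7 and 59.4 CPM in Control (log2 fold change -1.87 ± 0.27, adjusted p = 0.00509), and Klf4, a factor also abundant in vessel cells, at 10.3, 10.4 and 7.74 CPM in EAE, against 34.6, 25.5 and 49.6 CPM in Control (log2 fold change -1.95 ± 0.28, adjusted p = 0.00532). Both were called in all 16 alternatives, and the groups of all 3 genes were separate. The fourth was Dusp1, given above. Fos, the prototype of the class, was at 29.03, 26.2 and 59.5 CPM in EAE, against 42.2, 23.5 and 78.5 CPM in Control, with overlapping groups and the highest value in Control replicate 3 (log2 fold change -0.33 ± 0.45, and 0.22 without Control replicate 3).

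The remaining receptors were sparse. Nr6a1, the germ cell nuclear factor, was at 3.83, 2.94 and 3.22 CPM in EAE, against 4.07, 4.71 and 5.78 CPM in Control, with separate ranges and no call (log2 fold change -0.54 ± 0.37, adjusted p = 0.483). The oestrogen-related receptor Esrra, a regulator of mitochondrial genes, ran over 1.93 to 2.62 CPM in EAE and 2.51 to 3.15 CPM in Control (log2 fold change -0.24 ± 0.44, adjusted p = 0.832), Esrrg over 0.233 to 0.589 CPM in EAE and 0.288 to 1.76 CPM in Control, and Esrrb had 2, 0 and 1 reads in EAE and 1, 4 and 6 in Control. Nr5a2, a liver and ovary factor, had 1, 0 and 0 reads in EAE and 34, 2 and 0 in Control, nearly all in Control replicate 1. The 7 receptors with 0 reads in every library were Nr1h4, Nr1i2, Hnf4a, Hnf4g, Nr5a1, Nr0b1 and Nr0b2, known from liver, gut, gonad and adrenal. A count of 0 allows up to 3 reads in a library, or 0.0997 to 0.139 CPM, for counting error only.

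Coregulators were mostly not called. Of 16 coactivators 1 (6.25%) fell and none rose, a share near the 7.14% of all genes called (median log2 fold change 0.03), and of 11 corepressors none was called by edgeR, with 0 at an unadjusted p under 0.05 (median 0.13). The coactivator that fell was Ppargc1b, which encodes PGC-1 beta, a partner of the oestrogen-related receptors and PPARs. It was at 0.405, 0.484 and 0.366 CPM in EAE, against 2.84, 5.19 and 3.01 CPM in Control, with separate groups (log2 fold change -3.12 ± 0.57, adjusted p = 0.0134). Its call was lost without EAE replicate 1 and without Control replicate 2 (highest adjusted p 0.0742). Its relative Ppargc1a was at 1.77, 2.83 and 4.32 CPM in EAE, against 4.81, 5.47 and 4.21 CPM in Control, with overlapping groups (log2 fold change -0.70 ± 0.44, adjusted p = 0.441). Ncoa2, a steroid receptor coactivator, was at 211, 226 and 446 CPM in EAE, against 202, 206 and 200.5 CPM in Control, where EAE replicate 3 stood far above every other library (log2 fold change 0.54 ± 0.27, adjusted p = 0.319).

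Over the 14 lists, 143 of 168 distinct linked genes other than the receptors were tested, and 5 rose (3.5%) and 22 fell (15.4%), against 2.82% and 4.33% of all genes. Of the 22, 8 were in the venous and arterial list. The plot of linked genes shows how these were spread over the lists, with that list at the lowest median and the vitamin D list at the highest.

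**Figure D5:**
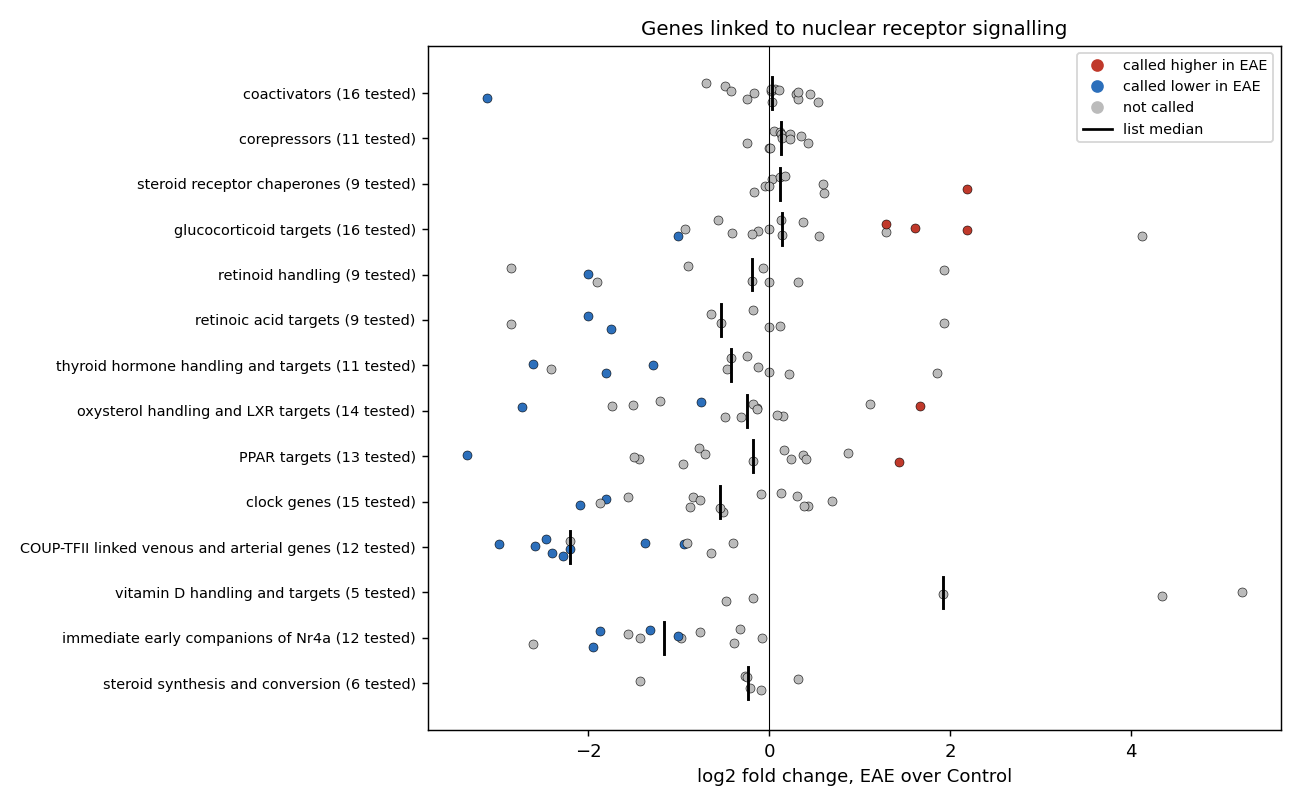
Log2 fold change, EAE over Control, of each tested gene in 14 lists linked to nuclear receptor signalling, with genes called higher in red, called lower in blue, not called in grey and list medians as black bars. The venous and arterial list has its median at -2.20 and the vitamin D list, with 5 genes and no call, at 1.92, whereas coactivators, corepressors, chaperones and glucocorticoid targets have medians between 0.03 and 0.14, and genes in several lists appear in each.

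Some receptor genes lie close together in the genome. On chromosome 11, Thra and Nr1d1 overlap by 1075 bases on opposite strands and Rara lies 152 kb beyond Nr1d1, and the log2 fold changes were 0.01, -1.57 and 0.42. On chromosome 14, Rarb, Thrb and Nr1d2 follow each other at 841 and 166 kb, with log2 fold changes of -0.18, -0.78 and -1.07. Of these 6 genes only Nr1d1 was called. Among tested receptors with a RefSeq promoter, 6 of 29 held an AGGTCA hexamer in at least 1 promoter window, and several of these receptors have more than 1 window.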

How the data were processed

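RNA was measured by bulk RNA-seq in 6 libraries, 3 EAE and 3 Control, grouped by the condition in the labels. The authors deposited raw read counts per Ensembl gene and a gene length in base pairs. Per the submitters' processing notes, the tools were FastQC, STAR, featureCounts and edgeR 3.24.3 and the build mm10, with no role or order stated. The sources used here do not give the strand setting or the treatment of reads with several positions, so overlapping genes and close paralogs are uncertain. Here overlaps of at least 5% of exonic bases are named beside the values, from the annotation of GRCm38. For some genes its exonic bases differ from the deposited length, as for Nr2c2 (14935 against 9152), Rarb (5265 against 3034) and Nr2f2 (8625 against 4863). For such genes the overlap shares may not hold for the bases that were counted. No column was left out, and every row named a gene.

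Genes were kept by filterByExpr in edgeR 4.0.16 (minimum count 10, minimum total 15, which amounts to 0.385 CPM in 3 libraries) under R 4.3.3. Library sizes were scaled with TMM factors (trimmed mean of M-values), and counts were tested 2-sided with the robust quasi-likelihood F test and adjusted by Benjamini-Hochberg over 16966 genes. CPM values use TMM-scaled library sizes, and the SE is the log2 fold change divided by the square root of F. The biological coefficient of variation was 39.6%. On simulated counts from these libraries, with 16532 genes tested, 10 of 110 genes changed by a log2 fold change of 1 and 49 of 84 changed by 2 were recovered, with 7 false calls. Alternatives included other scalings and filters, DESeq2 1.42.0, limma-voom (limma 3.58.1), a replicate block and leaving out libraries.

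The members, gene lists and marker lists were chosen with earlier results of these data known. All 6 values are given for receptors that were called, that had separate ranges or that were chosen for level or textbook role. From each list up to 4 called genes with a mean of at least 5 CPM and the largest fold changes were named by rule. Ppargc1b, Hey2, Nrp2, Dll4 and Notch4 and the uncalled targets were added with values known. Promoter sequences are from RefSeq (GRCm38.p6). Protein sequences were not used here. The values of some listed genes are counted with their lists and are not reported here.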

Additional observations from a re-analysis of the deposited data

How the results depend on the processing

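Calls of Nr1d1 and Nr2f2 held in all 16 alternatives, and that of Ppard in 9. The number of nuclear receptors called, 3, was 7 with no filter, 8 with DESeq2, 5 with limma-voom and 5 without both EAE replicate 3 and Control replicate 3, a setting chosen after seeing the data. It ran from 2 to 5 when single libraries were left out. The number of all genes called, 1212, was 2162 with DESeq2 and ran from 440 to 1150 without single libraries. Linked genes called, 27, were 45 with DESeq2, 42 without both libraries that stood apart, and ran from 13 to 34 without single libraries. No pairing by replicate number was seen, with correlations of deviations between libraries of the same number of 0.02, -0.04 and -0.03. With 3 libraries a group these values cannot exclude pairing. With a replicate block 2 receptors, 21 linked genes and 818 genes in all were called, and Ppard, Dusp1, Cdkn1c, Scd1, Fabp7, Nrp2 and Hey2 were among those that lost their calls.

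The log2 fold changes of some uncalled genes turned sign. Rarb was 0.14 with limma-voom and 0.18 with the replicate block, and Thra -0.00598 with limma-voom and -0.00442 with the block. Without both libraries that stood apart Rara was -0.00294, Nr1h2 0.15, Nr2c1 0.0174, Nr4a2 -0.17 and Arntl 0.41. Over the 6 fits that each left out 1 library Rara ran from -0.11 to 0.76, Rarb from -0.72 to 0.46, Thra from -0.0756 to 0.15 and Nr1h2 from -1.08 to 0.0168. The range was -0.17 to 0.00309 for Nr2c2, -0.45 to 0.0769 for Nr2f6, -0.22 to 0.85 for Nr4a2 and -0.57 to 0.28 for Nr4a3. Among linked genes it was -0.38 to 0.0417 for Klf9, -0.15 to 0.41 for Abcg1, -0.95 to 0.00119 for Arntl and -0.79 to 0.22 for Fos. The cause of these changes was not tested. Over the fold changes of 31 tested receptors and 62 linked genes under the alternatives, 1309 values kept their direction and side of the threshold, 71 newly passed, 79 no longer passed and 26 turned.

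With 3 libraries a group, 9.09% of simulated log2 fold changes of 1 were recovered. Only 110 tested genes were changed by that amount and 84 by 2, against 1212 genes called in the data. The adjustment was therefore stricter in the simulation, and its changed genes were of all levels. The share recovered is not a detection rate for Nr3c2, Rora or Nr1d2. A receptor without a call is not shown to be unchanged. Receptors below the filter rest on few reads, and bulk values do not separate cell types.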
